A study of Mus musculus with 6 samples.

Results

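Glutathione and antioxidant genes were followed in injured mouse renal cortex with and without daily Bruceine A (BA). A gene was a member if its symbol began with Gst and a letter of the alpha, kappa, mu, omega, pi, theta or zeta class followed by a digit, with Gpx or Prdx followed by a digit, or with Txn. Sod1, Sod2, Sod3, Cat, Gclc, Gclm, Gss, Gsr, Srxn1, Nqo1, Hmox1, Nfe2l2, Keap1, Fth1 and Ftl1 were added by name. The rule used symbols and no measured value, and it found 63 of the 19176 rows of the table. Each member stood on 1 row.

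Glutathione is a small thiol that cells build from glutamate, cysteine and glycine, and it is the main soluble reductant of the tubule cell. Glutathione peroxidases and peroxiredoxins spend thiols to reduce peroxides, superoxide dismutases turn superoxide into hydrogen peroxide, and catalase breaks hydrogen peroxide down in peroxisomes. Glutathione S-transferases join glutathione to electrophiles. NRF2, encoded by Nfe2l2, is held back by KEAP1 and is known for switching on many of these genes through the antioxidant response element when cells meet oxidants. Proximal tubule cells are rich in mitochondria and peroxisomes, and ischemia followed by reperfusion exposes them to oxidants.

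All 6 mice were adult wild-type males of strain C57BL/6J, and in all of them the left renal pedicle was clamped and released (unilateral ischemia-reperfusion injury, UIRI). The right kidney was removed the day before tissue was taken. The UIRI group (3 mice) received vehicle, and the UIRI + BA group (3 mice) received BA intraperitoneally at 1 mg/kg, both once a day until cortex was taken on day 14. BA is a plant compound, and the sample labels call it brucine A. Each library came from a separate mouse, and sham kidneys were not analysed here, so every difference given is UIRI + BA against UIRI alone and not against an uninjured kidney.

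The libraries held 16510720 to 38124164 reads on genes. The values used are normalized counts, that is, reads on a gene divided by a size factor of the library. UIRI replicate 3 stood apart from the rest of its group: it held 2.04 times the median reads of the other libraries, and on the first principal component (41.8% of the variance) it lay at 11.1, among the UIRI + BA libraries (3.11 to 30.5) and away from UIRI replicates 1 and 2 (-32.5 and -25.5). The differences of the named members are therefore given with and without it. Over all rows, limma called 0 genes at an adjusted p below 0.05 (0%) and 1971 at an unadjusted p below 0.05, of which 1087 were higher with BA (5.67%) and 884 lower (4.61%). edgeR's quasi-likelihood test also called 0 after adjustment, with 1703 at an unadjusted p below 0.05. DESeq2 on the recovered reads called 163 genes higher (1.14%) and 50 lower (0.349%) of the 14340 it gave an adjusted p.

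Among the 63 members, limma called 0 at an adjusted p below 0.05. At an unadjusted p below 0.05, 6 members were higher with BA (9.52%, against 5.67% of all genes) and 4 were lower (6.35%, against 4.61%). The higher members were Gsta2, Gpx3, Cat, Sod3, Gss and Txndc11, and the lower ones were Gsto1, Gstm2, Gpx7 and Gpx8. DESeq2 called 1 of the 60 members it gave an adjusted p, Gsta2 (1.67%, against 1.49% of all genes). The members as a whole did not lean in either direction: 29 log2 fold changes were above 0 and 34 below, with a median of -0.01, as over all genes. Their size was small, with a median of 0.11 regardless of sign (0.14 over all genes), and 44 of the 63 members differed by less than 0.2 (69.8%, against 63.4% of all genes). The range ran from -0.53 in Gstp2 to 0.73 in Gpx6, both of them with few reads.

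The groups did not overlap in 11 members. In 7 of these every UIRI + BA library lay above every UIRI library (11.1%, against 7.45% of all genes), and in 4 every one lay below (6.35%, against 6.96%). The 7 were Gsta2, Gpx3, Cat, Sod2, Sod3, Gss and Txndc12, and the 4 were Gsto1, Gpx7, Gpx8 and Txndc5. With 3 libraries a group the exact two-sided permutation test cannot go below 0.1, the value each of these genes had. Without UIRI replicate 3, limma called 7 members at an adjusted p below 0.05: Gsta2, Gpx3, Cat and Gclc were higher (4 members, 6.35%, against 3.22% of all genes) and Gsto1, Gstm2 and Ftl1 were lower (3 members, 4.76%, against 1.79%). The count of members called after adjustment was thus 0 with that library and 7 without it. UIRI replicate 3 was the untreated library that lay among the treated ones, so leaving it out widens the group difference in many genes. Over all genes, 962 were called without it. The adjusted p-values without it show how far a result depends on 1 library and are not separate support for it.

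**Figure D1:**
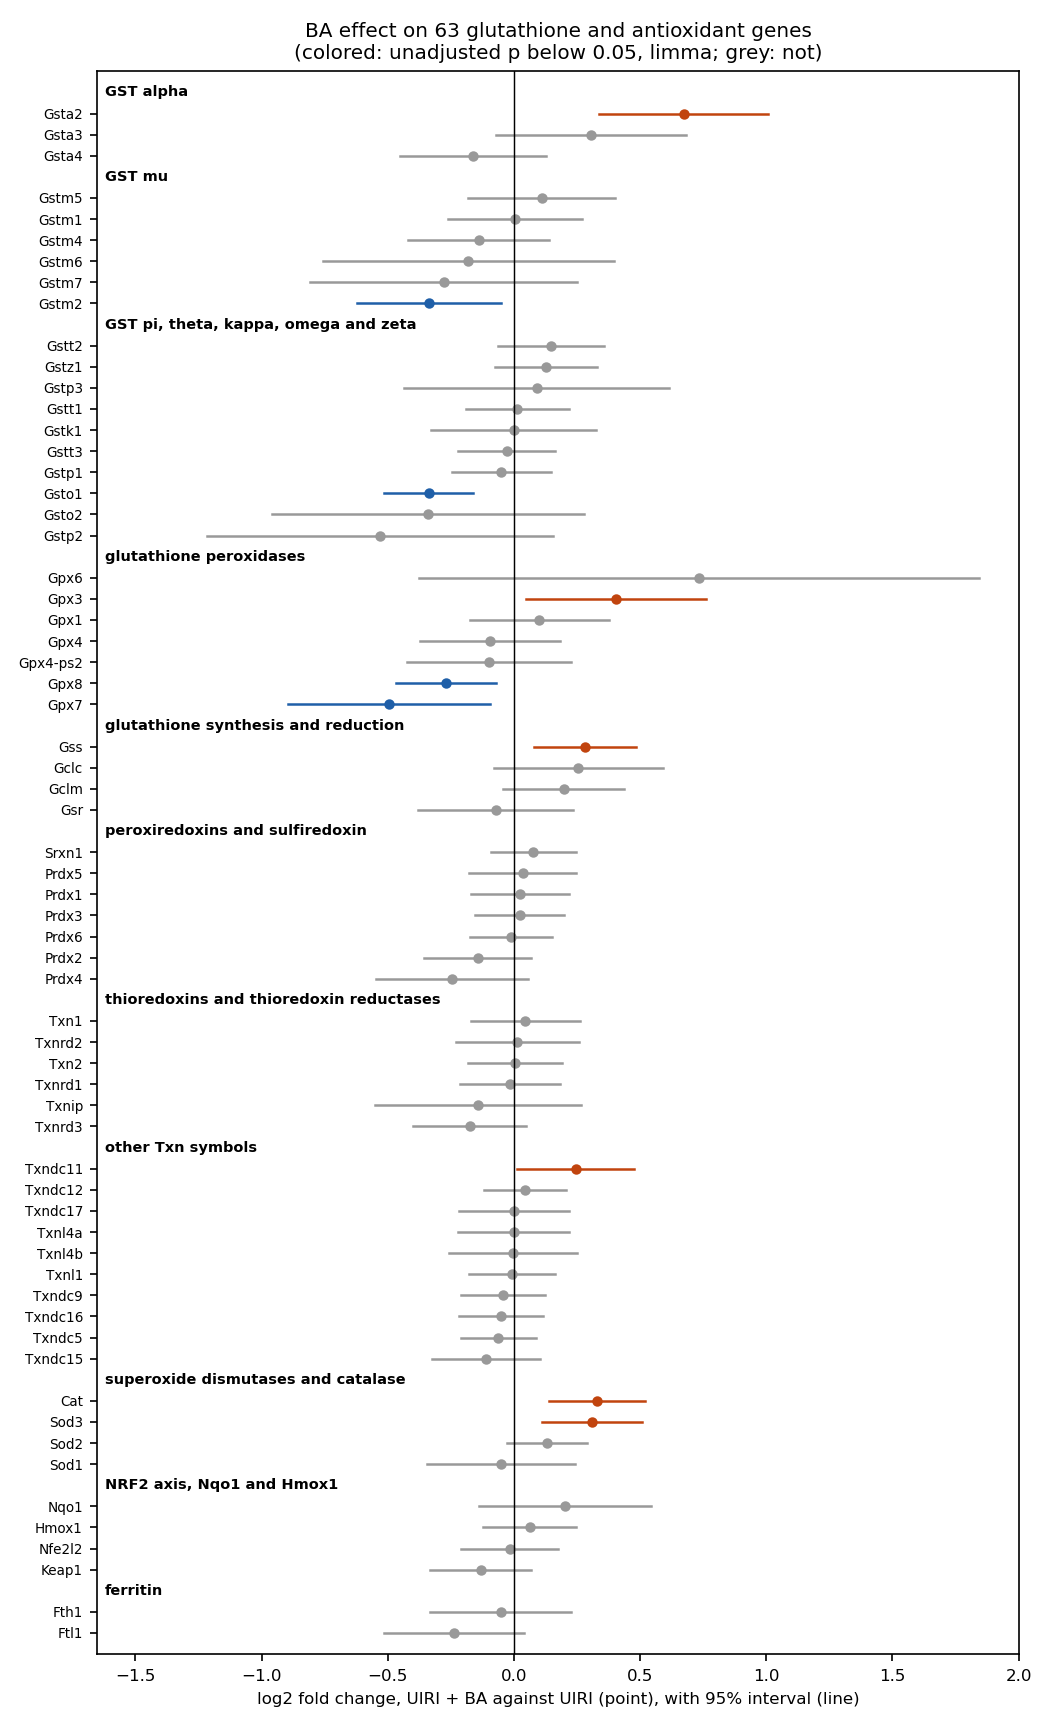
Log2 fold change (horizontal axis, UIRI + BA against UIRI, 3 libraries each) of the 63 members by class, as a point with its 95% limma interval as a line. Orange and blue mark the 6 higher and 4 lower members with an unadjusted p below 0.05, and the intervals of the grey members all span 0.

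The alpha-class transferases held the member with the largest difference among those at an unadjusted p below 0.05. Gsta2 encodes an alpha-class enzyme that conjugates glutathione to electrophiles and reduces lipid hydroperoxides. In the UIRI libraries its normalized counts were 887, 956 and 1239, and in the UIRI + BA libraries 1408, 1932 and 1566. Every treated library exceeded every untreated one, and the group means were 1027 ± 187 and 1635 ± 269 (SD, n = 3), 1.59-fold higher with BA. Its log2 fold change was 0.67 ± 0.15 (SE), with an adjusted p of 0.240 in limma and 0.0056 in DESeq2. With UIRI replicate 3 left out the log2 fold change was 0.82, at a limma adjusted p of 0.0125. The unadjusted p stayed below 0.05 with any 1 of the 6 libraries left out, over log2 fold changes of 0.55 to 0.82. Of the 100-base stretches of the Gsta2 transcripts, 28.4% also occur in transcripts of other genes, 18.2% in Gsta1, so reads of Gsta2 and its paralogs may not be fully separable. Gsta3 and Gsta4, the other members of the class, had log2 fold changes of 0.30 and -0.16, and their groups overlapped. Once UIRI replicate 3 was left out they were at 0.42, past the unadjusted threshold, and at -0.03.

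In the mu class, 1 of 6 genes passed the unadjusted threshold, which 10.3% of all genes passed. Gstm2, a cytosolic mu-class transferase, had normalized counts of 1152, 1108 and 859 in UIRI compared with 729, 838 and 891 in UIRI + BA. UIRI replicates 1 and 2 were the highest, while UIRI replicate 3 lay within the range of the treated libraries, so the groups overlapped. Its log2 fold change was -0.34 ± 0.13 (SE) with a limma adjusted p of 0.442 and a DESeq2 adjusted p of 0.339. It was -0.47 without UIRI replicate 3, with a limma adjusted p of 0.0329. Leaving out UIRI replicate 1, UIRI replicate 2 or UIRI + BA replicate 1 gave log2 fold changes of -0.26, -0.28 and -0.25 that no longer passed the unadjusted threshold. The other 5 mu-class genes ranged from -0.28 in Gstm7 to 0.11 in Gstm5, and from -0.36 to 0.11 in the same genes without UIRI replicate 3. Gstm1 had means of 3345 ± 281 and 3376 ± 528.

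The pi, theta, kappa, omega and zeta classes together held 10 genes. Of these, 1 passed the unadjusted threshold, near the 10.3% of all genes that did. Gsto1 encodes an omega-class enzyme with a cysteine in its active site, known for reducing dehydroascorbate and for removing glutathione from proteins. Its normalized counts were 1704, 1615 and 1561 in UIRI against 1210, 1348 and 1302 in UIRI + BA. All treated libraries lay below all untreated ones, and this held for UIRI replicate 3 as for the rest. The log2 fold change was -0.34 ± 0.08 (SE) with adjusted p-values of 0.253 in limma and 0.0519 in DESeq2, and it stayed between -0.37 and -0.29 with any 1 library left out. The limma adjusted p was 0.0339 without UIRI replicate 3. Gsto2, its neighbor on chromosome 19, had 15 to 43 reads a library and no adjusted p from DESeq2. Of the rest, Gstp1, the most widely expressed pi-class enzyme, had means of 1741 ± 98.7 and 1684 ± 137, and 25.1% of its 100-base stretches are shared with Gstp2. Gstp2, with 46.9% of its stretches shared and 15 to 42 reads a library, cannot be separated firmly from Gstp1; its log2 fold change was -0.53, and -0.74, past the unadjusted threshold, without UIRI replicate 3. The theta, kappa and zeta genes ran from -0.03 to 0.15, and from -0.07 to 0.14 without that library.

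Gpx3 took the most reads per kilobase of any member. It encodes the secreted glutathione peroxidase of blood plasma, which is made largely by proximal tubule cells. The normalized counts in UIRI were 51772, 53749 and 77834, and those in UIRI + BA were 81148, 78146 and 79193. The treated libraries were close to each other, UIRI replicates 1 and 2 were about equally low, and UIRI replicate 3 lay just under the treated range. Group means were 61118 ± 14510 and 79496 ± 1524, and the log2 fold change was 0.40 ± 0.16 (SE) with a limma adjusted p of 0.452 and a DESeq2 adjusted p of 0.245. Leaving out UIRI replicate 3 gave a log2 fold change of 0.59 with a limma adjusted p of 0.0203. The fit without UIRI replicate 3 was also the only fit of the 6 with a library left out in which Gpx3 had an unadjusted p below 0.05, and the log2 fold changes in the others were 0.30 without UIRI replicate 1, 0.32 without UIRI replicate 2, and 0.39, 0.42 and 0.41 without UIRI + BA replicates 1, 2 and 3.

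The peroxidases of the endoplasmic reticulum stood on the other side. Gpx7 and Gpx8 encode small cysteine-type family members that use peroxide to help disulfide formation in newly made proteins. Gpx7 had 581, 539 and 416 normalized counts in UIRI compared with 278, 404 and 413 in UIRI + BA. The groups did not overlap, but only narrowly, since UIRI replicate 3 and UIRI + BA replicates 2 and 3 were nearly level. Its log2 fold change was -0.49 ± 0.18 (SE) with a limma adjusted p of 0.427, and -0.64 without UIRI replicate 3 with a limma adjusted p of 0.056. Without UIRI replicate 1, UIRI replicate 2 or UIRI + BA replicate 1 it was -0.40, -0.45 and -0.31, none of which passed the unadjusted threshold.

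Gpx8 had 2056, 1839 and 1791 normalized counts in UIRI against 1520, 1487 and 1709 in UIRI + BA. The untreated libraries were all higher. Its difference on the log2 scale was -0.27 ± 0.09 (SE) with adjusted p-values of 0.385 in limma and 0.291 in DESeq2, and -0.31 without UIRI replicate 3. It missed the unadjusted threshold once UIRI replicate 1 (-0.21) or UIRI + BA replicate 2 (-0.23) was left out.

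Gpx1 and Gpx4, the selenium-containing peroxidases found in most cells, had smaller differences. Gpx1, the main cytosolic enzyme, had 19165, 20063 and 16872 normalized counts in UIRI compared with 16986, 22570 and 20869 in UIRI + BA. Gpx4, which reduces lipid peroxides within membranes and restrains ferroptosis, had 7107, 7058 and 5818 against 5235, 6735 and 6817. In both genes the groups overlapped widely. The log2 fold changes were 0.10 (95% interval -0.17 to 0.38) for Gpx1 and -0.09 (-0.37 to 0.18) for Gpx4. Gpx4 shares 25.2% of its 100-base stretches with the pseudogene Gpx4-ps2, and 68.4% of the stretches of Gpx4-ps2 are shared in turn. Gpx6, with 4 to 41 reads a library, had a log2 fold change of 0.73 (-0.38 to 1.84), and of 1.29 (0.38 to 2.19) without UIRI replicate 3, which passed the unadjusted threshold. That library held the highest of its 6 values. Leaving out UIRI replicate 3 gave 0.03 for Gpx1 and -0.19 for Gpx4. Summed over the 7 peroxidase genes, the share of all reads on genes was 0.382%, 0.397% and 0.493% for the vehicle libraries, against 0.509%, 0.515% and 0.515% with BA. Gpx3 made up most of this sum, with a mean share of 0.334% over the 6 libraries, and Gpx1 had 0.0923%. The sum does not show a rise across the class: 3 log2 fold changes were above 0 and 4 below, with a median of -0.09.

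**Figure D2:**
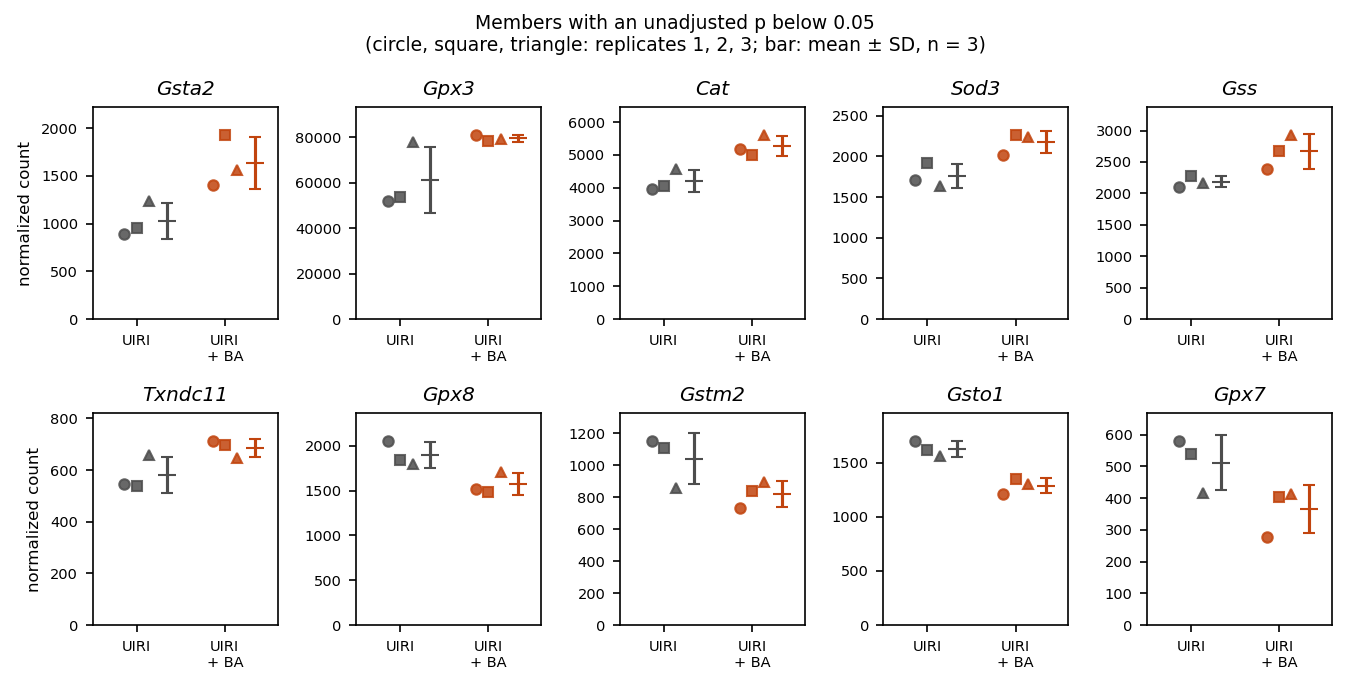
Normalized counts (vertical axes, each starting at 0) of the 10 members with an unadjusted p below 0.05, by library, with bars for the mean ± SD of 3 libraries. Triangles mark replicate 3, and the UIRI triangle lies nearer to the UIRI + BA libraries than the other UIRI points in Gsta2, Gpx3, Cat, Txndc11, Gpx7, Gpx8, Gstm2 and Gsto1.

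Of the 4 genes that make and regenerate glutathione, 3 had a log2 fold change above 0. Gss encodes glutathione synthetase, which adds glycine in the last step of synthesis. Its normalized counts were 2108, 2281 and 2169 in UIRI against 2386, 2682 and 2934 in UIRI + BA, so that every treated library was above every untreated one. The log2 fold change was 0.28 ± 0.09 (SE), with adjusted p-values of 0.372 in limma and 0.215 in DESeq2. Leaving out UIRI replicate 3 gave 0.28. Leaving out UIRI + BA replicate 3, the highest library, gave 0.21, which no longer passed the unadjusted threshold.

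Gclc and Gclm encode the catalytic and the modifier subunit of glutamate-cysteine ligase, the rate-limiting enzyme of glutathione synthesis. Gclc had 1846, 1921 and 2769 normalized counts in UIRI compared with 2810, 2346 and 2533 in UIRI + BA. Gclm had 2747, 2850 and 3409 against 3253, 3216 and 3848. In both genes UIRI replicate 3 lay among the treated libraries while UIRI replicates 1 and 2 lay below all of them. With all libraries the log2 fold changes were 0.26 (95% interval -0.08 to 0.59) and 0.20 (-0.04 to 0.44), and neither passed the unadjusted threshold. Without UIRI replicate 3 they were 0.44 with a limma adjusted p of 0.0278 for Gclc and 0.29 with 0.0869 for Gclm.

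Gsr encodes glutathione reductase, which returns oxidized glutathione to its reduced form with NADPH. Its counts of 1366, 1170 and 1671 in UIRI against 1188, 1294 and 1495 in UIRI + BA overlapped, and its log2 fold change was -0.07 (-0.38 to 0.23), or 0.06 without UIRI replicate 3.

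Of the 4 genes for superoxide dismutases and catalase, 3 were higher with BA, and 2 of these passed the unadjusted threshold. Among all genes, 5.67% passed it in that direction. Cat encodes catalase, the peroxisomal enzyme that splits hydrogen peroxide. It had normalized counts of 3958, 4057 and 4572 in UIRI compared with 5190, 5006 and 5616 in UIRI + BA. No library of one group reached the other group, and the means were 4196 ± 329 and 5271 ± 313. Its log2 fold change was 0.33 ± 0.08 (SE) with adjusted p-values of 0.291 in limma and 0.0652 in DESeq2, and 0.39 without UIRI replicate 3 with a limma adjusted p of 0.0246. It ranged from 0.28 to 0.39 over the fits that left out 1 library, all of them at an unadjusted p below 0.05.

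Sod3 encodes the extracellular copper-zinc superoxide dismutase bound to the matrix. Its normalized counts were 1714, 1923 and 1632 in UIRI against 2018, 2268 and 2241 in UIRI + BA, again without overlap. Here UIRI replicate 3 was the lowest library. For Sod3 the log2 fold change was 0.31 ± 0.09 (SE) with adjusted p-values of 0.324 in limma and 0.147 in DESeq2, and 0.26 without UIRI replicate 3. With any 1 library left out, the unadjusted p stayed below 0.05.

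The cellular dismutases differed less. Sod2, the manganese enzyme of mitochondria, had 2436, 2296 and 2434 normalized counts in UIRI compared with 2536, 2720 and 2592 in UIRI + BA. Its groups did not overlap, although the log2 fold change of 0.13 (-0.03 to 0.29) did not pass the unadjusted threshold. Of the 100-base stretches of the Sod2 transcripts, 12.8% are shared with other genes. Sod1, the copper-zinc enzyme of the cytosol, had 4683, 4586 and 3483 against 3543, 4345 and 4363, with overlap and a log2 fold change of -0.05 (-0.34 to 0.24). Leaving out UIRI replicate 3 gave 0.15 for Sod2 and -0.19 for Sod1.

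None of the 7 peroxiredoxin and sulfiredoxin genes passed the unadjusted threshold, which 10.3% of all genes passed. Peroxiredoxins reduce peroxides with a reactive cysteine, and sulfiredoxin repairs them when that cysteine is over-oxidized. Prdx1, the most abundant of them here per kilobase, had 16266, 15611 and 16500 normalized counts in UIRI against 15404, 16096 and 17764 in UIRI + BA. Srxn1 had 1278, 1238 and 1201 against 1238, 1345 and 1339. Neither gene separated the groups, and the log2 fold changes were 0.02 (-0.17 to 0.22) and 0.08 (-0.09 to 0.25). The others ran from -0.25 in Prdx4, the peroxiredoxin of the endoplasmic reticulum, to 0.04 in mitochondrial Prdx5. In the fit without UIRI replicate 3, Prdx4 was at -0.38 with a limma adjusted p of 0.0763 and Prdx2 at -0.23 with 0.0995, both past the unadjusted threshold, while Prdx1 was at 0.04 and Srxn1 at 0.05.

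The 6 genes for thioredoxins, thioredoxin reductases and TXNIP also held none past the unadjusted threshold (10.3% of all genes passed it). Thioredoxin keeps peroxiredoxins and other proteins reduced, thioredoxin reductase recharges it with NADPH, and TXNIP binds and blocks it. Txn1 had 5458, 5381 and 4930 normalized counts in UIRI compared with 4760, 5703 and 5859 in UIRI + BA. Txnrd1 had 2281, 2065 and 2546 against 2231, 2244 and 2314. These groups overlapped, and the log2 fold changes were 0.05 (-0.17 to 0.26) and -0.02 (-0.21 to 0.18). Txnip was the most variable of the class, with 16821, 15318 and 12001 in UIRI against 17111, 12767 and 10545 in UIRI + BA. Its lowest and its highest library were both treated ones, and its log2 fold change was -0.14 with a wide interval (-0.55 to 0.27). Its sign depended on 1 library, since it was 0.02 without UIRI + BA replicate 3. In the absence of UIRI replicate 3, Txn1 was at -0.000285, Txnrd1 at 0.06 and Txnip at -0.28.

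A further 10 members carry a Txn symbol for a thioredoxin-like domain, and not all of them are known antioxidants: Txnl4a, for instance, is a splicing factor. Txndc11, which encodes a thioredoxin-domain protein of the endoplasmic reticulum, alone passed the unadjusted threshold, which 10.3% of all genes passed. It had 546, 538 and 660 normalized counts in UIRI compared with 714, 699 and 646 in UIRI + BA. UIRI replicate 3 lay above UIRI + BA replicate 3, so the groups overlapped. The log2 fold change was 0.24 ± 0.10 (SE) with a limma adjusted p of 0.473, and 0.34 without UIRI replicate 3 with a limma adjusted p of 0.0534. It missed the unadjusted threshold with UIRI replicate 1 or 2 left out (0.20 and 0.19) and with UIRI + BA replicate 1 or 2 left out (0.22 and 0.23). It also missed it in DESeq2 (0.23), under upper quartile scaling (0.22) and with the replicate block (0.24). The remaining 9 genes ran from -0.11 in Txndc15 to 0.04 in Txndc12, and from -0.19 to 0.06 in the same genes without UIRI replicate 3, where Txndc15 passed the unadjusted threshold.

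With all 6 libraries, none of Nfe2l2, Keap1, Nqo1 and Hmox1 passed the unadjusted threshold, which 10.3% of all genes passed. Nfe2l2 had 5058, 4682 and 5681 normalized counts in UIRI against 5139, 4998 and 5070 in UIRI + BA. Keap1 had 919, 950 and 800 against 794, 813 and 823. The treated libraries of Nfe2l2 lay within the range of the untreated ones, and in Keap1 only UIRI replicate 3 lay in the treated range. The log2 fold changes were -0.02 (-0.21 to 0.18, and 0.06 without UIRI replicate 3) for Nfe2l2 and -0.13 (-0.33 to 0.07) for Keap1, and Keap1 without UIRI replicate 3 was at -0.21, past the unadjusted threshold but with a limma adjusted p of 0.132.

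Nqo1 encodes a quinone reductase and is a standard readout of NRF2. It had 165, 128 and 169 normalized counts in UIRI compared with 174, 159 and 197 in UIRI + BA, with a log2 fold change of 0.20 (-0.14 to 0.54). Hmox1, the inducible enzyme that breaks down heme, had 845, 812 and 742 against 822, 840 and 840, with a log2 fold change of 0.06 (-0.12 to 0.25). The intervals leave room for changes of up to 0.54 in Nqo1 and 0.25 in Hmox1, and RNA levels do not show how much NRF2 protein was in the nucleus. Omitting UIRI replicate 3 gave 0.27 for Nqo1 and 0.01 for Hmox1.

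**Figure D3:**
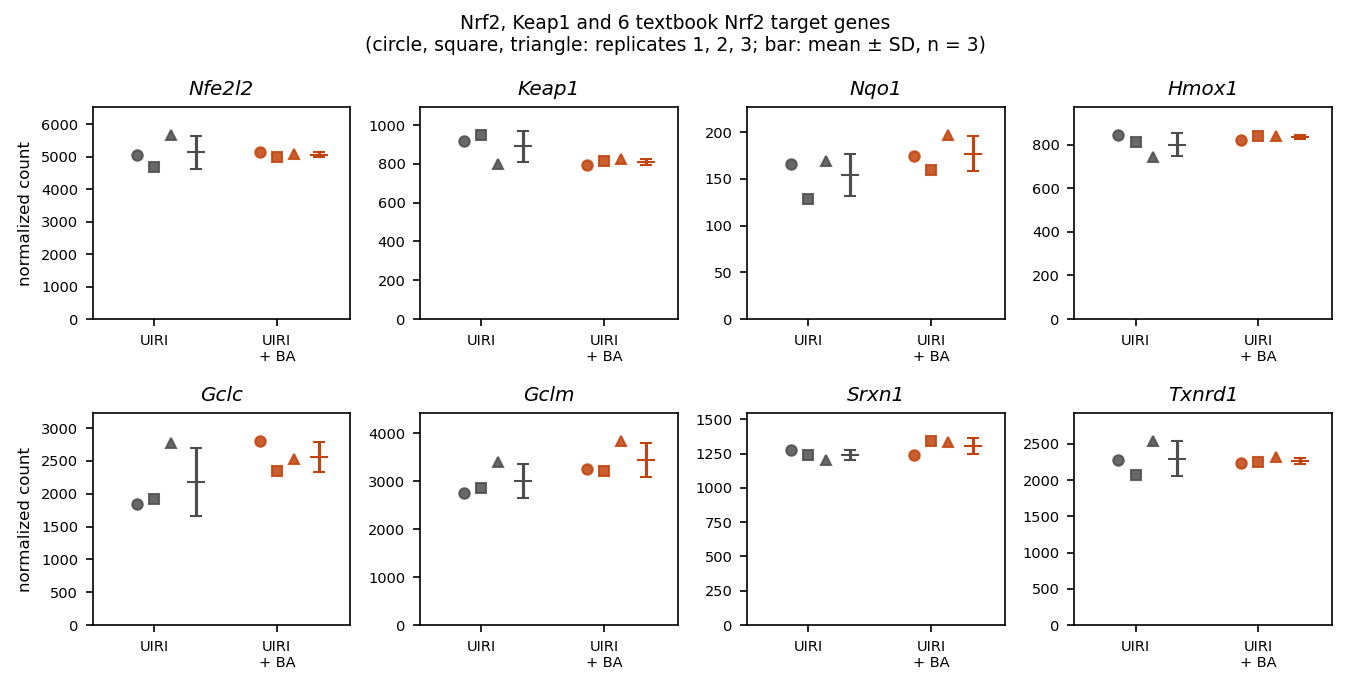
Normalized counts (vertical axes, each starting at 0) of Nfe2l2, Keap1 and 6 textbook NRF2 target genes by library, with bars for the mean ± SD of 3 libraries. The groups overlap in all 8 genes. The UIRI triangle (replicate 3) lies above the other UIRI libraries in Gclc, Gclm, Nfe2l2, Txnrd1 and, narrowly, Nqo1.

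The core of the antioxidant response element, TGACNNNGC, was looked for on both strands of the 300 bases around each start site (250 before and 50 after) in RefSeq promoters of GRCm38.p6. It was found in 11 of the 53 members with a promoter entry (20.8%) and in 3781 of 27025 genes (14.0%), or 12.4% of all promoters. The members were Gclm, Gsta3, Gstm5, Gstm7, Nfe2l2, Prdx1, Sod1, Srxn1, Txndc11, Txndc5 and Txnrd1. Of these, Txndc11 alone had an unadjusted p below 0.05, so 9 of the 10 members past that threshold did not have the letters in this window or had no entry. Entries were missing for Gclc, Gpx4-ps2, Gsr, Gsta4, Gstt2, Hmox1, Prdx6, Sod3, Txnl1 and Txnl4a. Windows are printed for Gclm, Prdx1 and Txnrd1, 3 textbook NRF2 targets whose groups overlapped, and for Txndc11, each read 5′ to 3′ along the gene's own strand with the 9 matching letters in capitals; letters beginning GC and ending TCA are the same core on the opposite strand. They lie at chr3:122245403-122245451 (plus strand), chr4:116685446-116685494 (plus strand), chr10:82859094-82859142 (plus strand) and chr16:11134745-11134782 (minus strand), and the first matching base is 134, 133, 92 and 241 bases before the RefSeq start site. For Prdx1, Txnrd1 and Txndc11 that start lies inside the longer gene model of GENCODE M21.
Gclm: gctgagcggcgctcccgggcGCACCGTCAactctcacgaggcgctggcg
Prdx1: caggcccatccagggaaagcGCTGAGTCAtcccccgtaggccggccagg
Txnrd1: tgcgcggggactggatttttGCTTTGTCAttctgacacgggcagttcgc
Txndc11: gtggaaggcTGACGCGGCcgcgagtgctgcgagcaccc

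Ferritin stores iron and so keeps it from feeding oxidant chemistry. Its heavy chain, Fth1, which oxidizes iron for storage, had 42083, 41893 and 33756 normalized counts in UIRI against 33582, 39602 and 40111 in UIRI + BA, with overlap and a log2 fold change of -0.05 (-0.33 to 0.23). The sign of that value was not stable, since quantile normalization gave 0.03, and it was -0.16 without UIRI replicate 3. The light chain, Ftl1, had 13663, 13972 and 10297 against 9907, 11231 and 10808. UIRI replicates 1 and 2 were the highest, and UIRI replicate 3 was within the treated range. The log2 fold change of Ftl1 was -0.24 (-0.51 to 0.04) with all libraries and -0.38 without UIRI replicate 3, with a limma adjusted p of 0.0348. Ftl1 shares 34.4% of its 100-base stretches with other loci, mainly the pseudogene Ftl1-ps1, so its reads are uncertain.

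To compare levels between genes, counts were divided by exon length. On the scale of mean normalized count per kilobase over the 6 libraries, Gpx3 was highest of the members at 38779 and 15th of all genes. Gpx1 followed at 13477, Fth1 at 11100, Ftl1 at 8691, Prdx1 at 5348, Txn1 at 5089, Txnip at 4513 and Gpx4 at 3748. Cat was at 1811 and Gsta2 at 1131. At the low end were Gpx6 at 10.7, Gsto2 at 10.1, Gstp2 at 24.1 and Gstp3 at 45.0, and Nqo1 was at 107. Of the reads on genes, the 63 members summed to 1.24%, 1.24% and 1.27% for the vehicle libraries, against 1.30%, 1.34% and 1.36% with BA. Gpx3 weighed most in this sum, with a mean share of 0.334% over the 6 libraries (range 0.245% to 0.392%). The sum does not show a rise across the members, since 29 log2 fold changes were above 0 and 34 below.

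**Figure D4:**
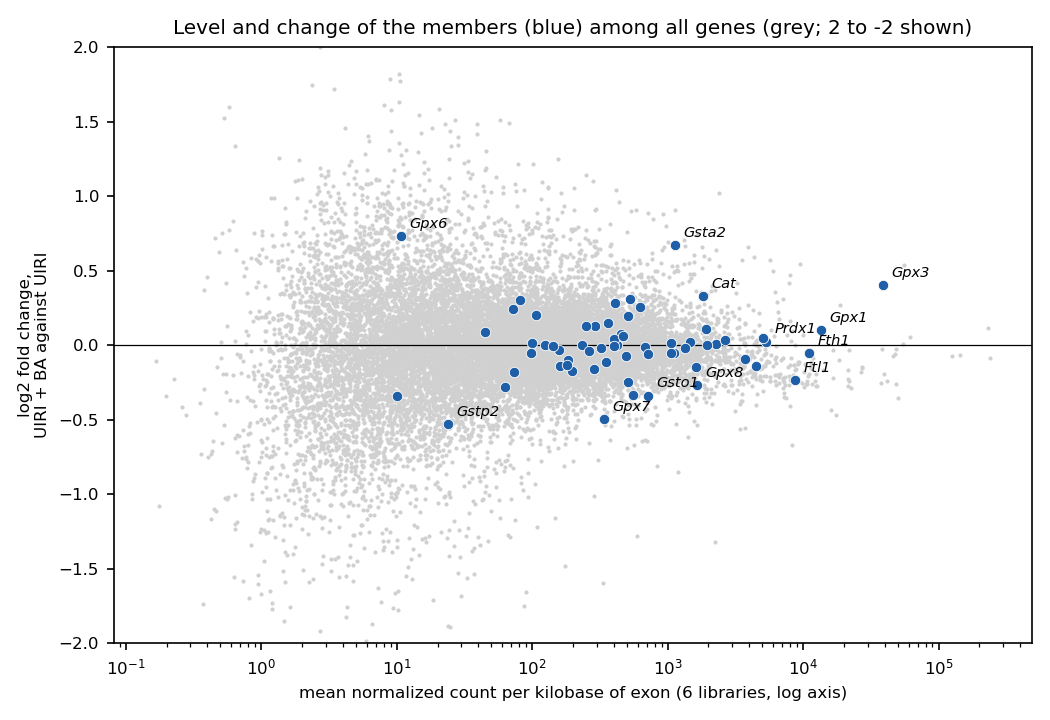
Log2 fold change (vertical axis, UIRI + BA against UIRI, from -2 to 2) against mean normalized count per kilobase of exon (horizontal log axis) for the 63 members (blue) and all other genes (grey). Among the most abundant members Gpx3 lies above 0 at 0.40 and Ftl1 below at -0.24, while Gpx1, Prdx1 and Fth1 lie close to 0.

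Markers of cell types differed between the groups as well. For comparison, 5.67% of all genes were higher and 4.61% lower at an unadjusted p below 0.05 in limma. The 24 proximal tubule genes were all higher with BA, 22 of them at an unadjusted p below 0.05 in limma and 12 at an adjusted p below 0.05 in DESeq2, with a median log2 fold change of 0.74 (0.98 without UIRI replicate 3). Their summed normalized count was 88764 to 122780 in UIRI and 135970 to 200140 in UIRI + BA, and none was at 0. The 17 leukocyte genes were all lower, 3 of them at an unadjusted p below 0.05, with a median of -0.28 (-0.43 without UIRI replicate 3) and sums of 154560 to 230100 against 150940 to 188810. Among the 13 genes of the injured tubule, 3 were higher and 5 lower at that threshold, with Havcr1 higher and Lcn2 and Krt19 lower. DESeq2 called 1 of these 13 genes higher and 3 lower at an adjusted p below 0.05. The higher one was Havcr1, the gene of KIM-1, at a log2 fold change of 0.42 with groups that did not overlap. By RT-qPCR the authors reported the opposite, less KIM-1 mRNA with BA in UIRI kidneys. In bulk cortex, fewer cells of a type and less RNA per cell cannot be told apart, and the part of cell composition in the differences of the members was not tested.

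By library, the mean log2 level of the proximal tubule genes was 10.34 and 10.39 in UIRI replicates 1 and 2, 11.07 in UIRI replicate 3, and 11.30, 11.17 and 11.53 in UIRI + BA replicates 1 to 3. Gsta2, Gpx3, Cat and Txndc11 had the same 2 lowest libraries, UIRI replicates 1 and 2. Against the mean of each over the 6 libraries, UIRI replicate 3 lay at 0.17 in Gpx3 and 0.07 in Txndc11. It lay at -0.04 in Cat, at -0.05 in Gsta2 and at 0.11 for the proximal tubule list. For the leukocyte genes the means were 11.54 and 11.44 in UIRI replicates 1 and 2, 11.05 in UIRI replicate 3, and 11.02, 11.22 and 10.89 with BA. Gstm2, Gpx7, Gsto1 and Gpx8 were likewise highest in UIRI replicates 1 and 2. Above their means, these 2 libraries lay at 0.33 and 0.27 in Gstm2 and at 0.44 and 0.34 in Gpx7. They lay at 0.237 and 0.160 in Gsto1 and at 0.255 and 0.094 in Gpx8. In both Gsto1 and Gpx8, UIRI replicate 3 was the next highest library. Sod3 and Gss did not follow this order. UIRI replicate 3 was the lowest library of Sod3 at -0.26, and in Gss it lay at -0.15, below UIRI replicate 2 at -0.08.

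**Figure D5:**
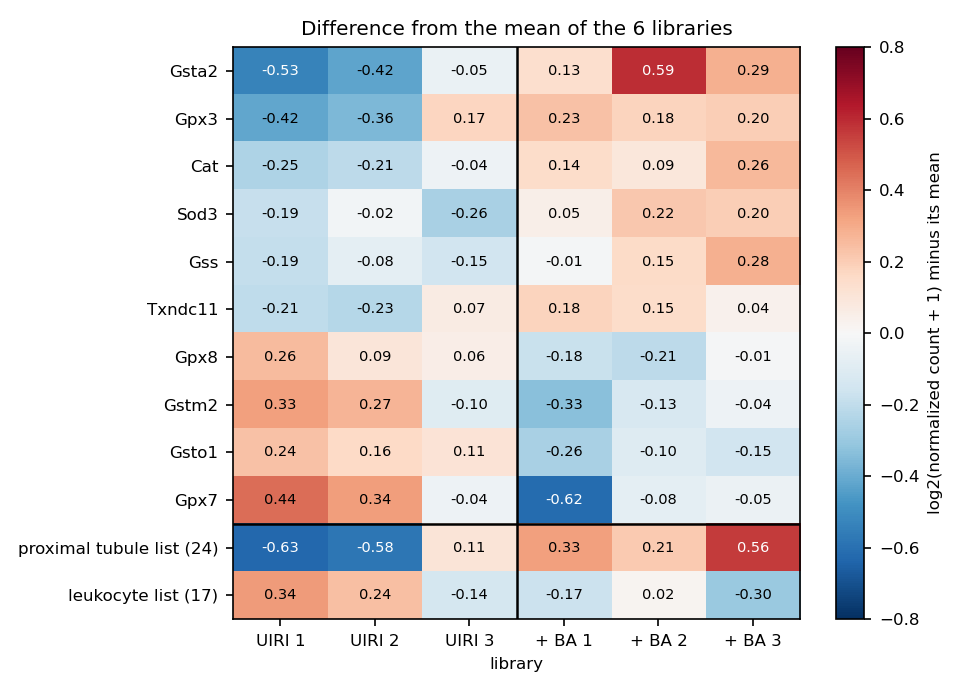
Difference of log2(normalized count + 1) from the mean over the 6 libraries (color and printed value) for the 10 members with an unadjusted p below 0.05 and for the mean of the proximal tubule and leukocyte lists. UIRI replicate 3 lies above the mean for Gpx3, Txndc11 and the proximal tubule list (0.17, 0.07 and 0.11), unlike UIRI replicates 1 and 2.

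Other genes of the glutathione and thioredoxin systems were read from fixed lists. Over all genes, 5.67% were higher and 4.61% lower at an unadjusted p below 0.05 in limma. Of 28 genes for glutathione turnover and transport, on 29 rows, 5 were higher and 1 lower at an unadjusted p below 0.05 in limma, with a median of 0.02. Abcc2, the apical pump that exports glutathione conjugates, had means of 1580 ± 274 and 2681 ± 335 and a log2 fold change of 0.77 with an adjusted p of 0.225 in limma, and it was among DESeq2's calls. Ggt1, the brush border enzyme that begins the breakdown of glutathione, and its relative Ggt6 were at 0.38 and 0.37. Slc7a11, which brings in cystine for glutathione synthesis, was at -0.71 with means of 83.7 ± 6.22 and 50.8 ± 3.93.

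Of 30 redox partners, 1 was higher and 2 lower at that threshold (5.67% and 4.61% over all genes). Msra, which repairs oxidized methionine, was at 0.32, Nxn, which encodes nucleoredoxin, at -0.49, and Sesn1, a sestrin, at -0.30. Of 15 genes that supply NADPH or its folate-linked partners, 2 were higher, Me1 (malic enzyme) at 0.39 and Aldh1l1 at 0.21, and 0 were lower. Among 27 other NRF2 targets and regulators, 3 were higher and 4 lower, with a median of -0.03. The 4 lower genes had the largest differences at an unadjusted p below 0.05. They were -0.78 in Cbr3 (a carbonyl reductase) and -0.75 in Nfe2l3 (a relative of NRF2). Slc7a11 was at -0.71 and Blvrb (biliverdin reductase B) at -0.43. The 3 higher genes, which included Me1, had smaller differences. Me1 and Slc7a11 were each counted on another list as well. Without UIRI replicate 3 the medians of the turnover, partner, NADPH and NRF2 lists were 0.11, -0.09, 0.02 and -0.02.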

How the data were processed

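Poly(A) RNA of renal cortex was sequenced in 6 libraries, grouped from their labels. The labels name a strand-specific kit. According to the methods, the authors used HISAT2 (v2.0.5) to align filtered reads, FeatureCounts to count them and DESeq2 (v1.20.0) to test them; the genome build and annotation are not given in the sources used here. The deposited signal per gene and library is a read count divided by a size factor, although the methods name FPKM: 100% of values were whole multiples of 1 step per library (tolerance 0.1 read), and whole reads were recovered by dividing by it. The table holds no gene with fewer than 10 reads in all. The deposited table also gives the authors' log2 fold change, statistic, p-value and adjusted p-value, and further deposited tables give enriched Gene Ontology and KEGG terms with counts, ratios and p-values. None of these were used, and 0 columns of library values went unused.

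limma 3.58.1 (R 4.3.3) was fitted to log2(value + 1) of all 19176 rows without covariates, with an intensity trend and Benjamini-Hochberg adjustment over all rows. Fold changes on this scale understate changes of genes with few reads. The recovered reads were also tested with DESeq2 1.42.0 and with edgeR 4.0.16. The alternatives were quantile and upper quartile scaling, a pseudocount of 0.1, a minimum of 1 in every library, a replicate block, each library left out, and DESeq2 without UIRI replicate 3, which was added after seeing the data. In simulated data for this comparison on 19176 genes (dispersion 0.03), limma recovered 8.0% of changes of 0.5 and 83.9% of changes of 1 on the log2 scale with 1 false call, and with nothing changed made 0 calls.

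The members, classes and gene lists were chosen with earlier results of these data known. Values per library are given for the 22 members fixed by name and for every member at an unadjusted p below 0.05, and of each pathway list for up to 4 genes at that threshold with the largest differences. Exon lengths and shared 100-base stretches came from GENCODE M21 (GRCm38), matched by symbol (98.2% of symbols, 63 of 63 members).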

Additional observations from a re-analysis of the deposited data

How the results depend on the processing

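Genes at an adjusted p below 0.05 numbered 0 in limma, 6 with the replicate block, 213 in DESeq2 and 1618 in DESeq2 without UIRI replicate 3, and ranged from 0 to 962 in limma with 1 library left out. Members so called numbered 0 in limma and 1 in DESeq2 (1.67%, against 1.49% of all genes). In DESeq2 without UIRI replicate 3 they numbered 11 (18.6%, against 11.6%). In limma with 1 library left out they ranged from 0 to 7 (11.1%, against 5.02%). The upper ends (962 and 7) came without UIRI replicate 3; with any other library left out both counts were 0. At an unadjusted p below 0.05 the members numbered 10, and 5 to 20 with 1 library left out (4 to 10 higher, 1 to 10 lower): 20 without UIRI replicate 3 (31.7%, against 25.2% of all genes), 6 without UIRI + BA replicate 1 (9.52%, against 6.62%) and 5 without UIRI replicate 1 (7.94%, against 4.21%). The cause was not tested. The other alternatives gave 9 to 11 members (14.3% to 17.5%, against 7.88% to 11% of all genes).

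Deviations from the group mean correlated at -0.24, 0.30 and 0.15 between same-numbered libraries of the 2 groups, for numbers 1, 2 and 3. Differently numbered libraries were not compared, so these values cannot decide whether the numbers pair the libraries. With the replicate block 7 members were higher and 4 lower at an unadjusted p below 0.05 (17.5% in both directions, against 11% of all genes). Gclm and Gsta3 joined at 0.20 and 0.30, and Txndc11 left at 0.24.

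Signs turned in 9 of the named members, none of which passed the unadjusted threshold. Quantile normalization turned Fth1 to 0.032. With 1 library left out, the log2 fold changes ran from -0.158 to 0.0298 for Fth1, -0.188 to 0.0308 for Gpx4, -0.195 to 0.062 for Gsr, -0.0808 to 0.0586 for Nfe2l2, -0.034 to 0.0689 for Prdx1, -0.189 to 0.0474 for Sod1, -0.0112 to 0.139 for Txn1, -0.328 to 0.0208 for Txnip and -0.0905 to 0.0604 for Txnrd1. Cat, Gsta2, Gsto1 and Sod3 had an unadjusted p below 0.05 in all 6 of these fits and in the other 7 alternatives. Upper quartile scaling moved the median of all genes by -0.02. In genes with few reads, such as Gpx6 (4 to 41), counting error adds to the spread between mice. In the simulated data, changes of 0.5 on the log2 scale were mostly missed at an adjusted p below 0.05. limma recovered 8.0% of them, DESeq2 15.9% and edgeR 13.6%, with 1, 9 and 2 false calls. The dispersion of 0.03 was set for every gene and not estimated, so the rate for the members may differ.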

Other observations

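Enzymes that make oxidants and genes that handle iron were read beside the members. At an unadjusted p below 0.05 in limma, 5.67% of all genes were higher and 4.61% lower. Of 18 oxidant-producing genes found, 5 were higher and 2 lower at an unadjusted p below 0.05 in limma. Hao2, a hydroxyacid oxidase of peroxisomes, had means of 1568 ± 325 in UIRI and 2543 ± 639 in UIRI + BA and a log2 fold change of 0.69, Pipox was at 0.47 and Dao, D-amino acid oxidase, at 0.47. Nox4, the NADPH oxidase abundant in kidney tubules, had means of 1949 ± 486 and 2669 ± 178 with overlapping groups and a log2 fold change of 0.48. None had a limma adjusted p below 0.05, while DESeq2 called Hao2 and Pipox.

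Of 12 iron-handling genes found, 1 was higher and 3 lower at that threshold. Lcn2, which binds iron-carrying siderophores and marks tubule injury, had means of 4818 ± 393 and 3382 ± 215 and a log2 fold change of -0.51, and DESeq2 called it at an adjusted p below 0.05. Hp, which encodes haptoglobin, was at -0.66 with overlapping groups, Trf (transferrin) at -0.24 and Aco1, the cytosolic aconitase that can act as an iron sensor, at 0.23. Without UIRI replicate 3 these were -0.56, -0.92, -0.32 and 0.29.

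Markers of tissues next to the cortex were sparse. The 9 urothelium genes found all lay lower in UIRI + BA (median -1.55 on the log2 scale, and -0.79 without UIRI replicate 3), with 0 at an unadjusted p below 0.05, and Upk2 and Upk3a were at 0 in a library. Their sums were 200 to 709 in UIRI and 89 to 453 in UIRI + BA, the highest library of each group being replicate 3. Of the other lists, at an unadjusted p below 0.05 the thick limb list held 1 higher gene of 9, the collecting duct list 1 higher and 1 lower of 12, the adrenal list 1 lower of 3 found, and the red blood cell list none of 7 found.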
